A study of Mus musculus with 6 samples.

Results

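The miR-15/16 seed family was examined in small RNA counts from the nucleus accumbens (NAc) of mice trained in a morphine conditioned place preference (CPP) test. The members were fixed by name as the mature miRNAs mmu-miR-15a-5p, mmu-miR-15b-5p, mmu-miR-16-5p, mmu-miR-195a-5p, mmu-miR-497a-5p and mmu-miR-322-5p (written without mmu- below), which share a seed, and all 6 were found among the 1364 miRNAs listed. Adult male C57BL/6N mice, 7 to 8 weeks old, received intraperitoneal injections through 6 days of conditioning, and the NAc was taken 0.5 h after the preference test on day 7. The morphine group had morphine at 10 mg/kg in alternation with saline at 1 ml/kg, and the saline group had saline alone, and no transgene or altered allele is named for either group. Each group gave 3 libraries, and the labels name the NAc as a whole, without core or shell. The series description gives 6 mice for the 3 samples of a group, while a figure legend of the study speaks of a single mouse per sample, so p-values measure the spread between these libraries, which may be partly technical.

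Mature miRNAs guide Argonaute proteins to messenger RNAs, mainly through base pairing of the seed, the stretch of bases 2 to 8 from the 5′ end. The miR-15/16 family is found in most tissues and is best known for restraining cyclins and the survival factor Bcl2, with roles in cell cycle exit and apoptosis. Bdnf, a growth factor of neurons, is among the targets reported for miR-195 and its relatives. miR-15a and miR-16 come from an intron cluster lost in many chronic lymphocytic leukaemias, and miR-322 is the rodent counterpart of human miR-424.

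The mature sequences are shown because the members are alike at the 5′ end and differ behind it. They are RefSeq sequences for GRCm38.p6, written 5′ to 3′ with the seed in capitals, and all 6 members had an entry.
miR-16-5p: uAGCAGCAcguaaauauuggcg
miR-195a-5p: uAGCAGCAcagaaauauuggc
miR-15a-5p: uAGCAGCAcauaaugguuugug
miR-15b-5p: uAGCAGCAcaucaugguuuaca
miR-497a-5p: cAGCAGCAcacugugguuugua
miR-322-5p: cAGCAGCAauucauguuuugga
The first base is C in miR-497a-5p and miR-322-5p and U in the other members. Counting positions from 1 at the 5′ end, miR-16-5p and miR-195a-5p had 19 identical bases of 21 compared and differed by G10A and U11G, with the base of miR-16-5p first. miR-15a-5p and miR-15b-5p had 18 identical bases of 22 and differed by A12C, G20A, U21C and G22A, with the base of miR-15a-5p first. Of the 15 pairs of members, miR-16-5p and miR-497a-5p were the least alike, with 11 identical bases of 22. GC content lay between 40.9% and 50.0%, lowest in miR-15a-5p, miR-15b-5p and miR-322-5p and highest in miR-497a-5p. RefSeq holds 10 mature miRNAs with this seed. The other 4, miR-195b, miR-6342, miR-6353 and miR-6419, were not among the 1364 miRNAs listed.

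The members come from 7 hairpins in 4 clusters, placed here by the GENCODE vM21 annotation of GRCm38. Mir15a (chr14:61632027-61632110) and Mir16-1 (chr14:61631880-61631972) lie 54 bases apart within the long non-coding gene Dleu2 and on its strand, Mir15a in an intron and Mir16-1 overlapping an exon. Mir15b (chr3:69009772-69009835) and Mir16-2 (chr3:69009902-69009996) lie 66 bases apart on the plus strand in an intron of Smc4, which encodes a condensin subunit. Mir497 (chr11:70234717-70234800) and Mir195a (chr11:70235042-70235135) lie 241 bases apart on the plus strand. The Mir497 hairpin overlaps the hairpin of miR-497b on the opposite strand, and Mir195a overlaps no other annotated gene. Mir322 (chrX:53054255-53054349) is on the minus strand, 200 bases from Mir503 and outside other annotated genes. Mature miR-16-5p is identical in sequence from Mir16-1 and Mir16-2, so its count is the sum over both loci and cannot be divided between them.

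The libraries held between 4183333 and 9842050 counts, and 3 counts, taken as the floor, corresponded to 0.305 to 0.717 CPM, the count scaled to a library of 1e+06. Levels below are CPM after scaling by the trimmed mean of M-values (TMM), with no length term, since mature miRNAs differ by few bases. Saline replicate 2 stood apart from saline replicates 1 and 3. Over 464 miRNAs with at least 100 counts, its log2 level relative to their mean had a Pearson correlation of -0.65 with the GC content of the mature sequence, a value across miRNAs of the same libraries. Over the same 464 miRNAs the log2 fold change, morphine minus saline, had a correlation of -0.27 with GC content. The neuronal miRNAs miR-124-3p, miR-128-3p, miR-137-3p, miR-9-5p and miR-138-5p were present in every library, and 1 of these 5, miR-124-3p, was downregulated with morphine. By the same criteria, given below, 9.68% of all miRNAs were upregulated and 9.68% downregulated. Markers of other cells were measured for their possible presence in the tissue. The summed level of 4 erythroid miRNAs was 216 to 312 CPM in the saline group and 360 to 572 CPM in the morphine group, but this rise came from miR-451a alone, the 1 of 4 upregulated (log2 fold change 1.57). The other erythroid miRNAs had negative values, -1.31 for miR-144-3p, which was at 0 in a morphine library, -1.16 for miR-144-5p and -0.20 for miR-486a-5p. The summed level of both endothelial miRNAs was 1485 to 5002 CPM in the saline group and 10984 to 16264 CPM in the morphine group, again through 1 of them, miR-126a-3p (log2 fold change 2.42), since miR-126a-5p had a value of -0.96 and did not pass. The mural (7134 to 18936 against 5709 to 13728 CPM), microglial and leukocyte (13.2 to 58.2 against 15.1 to 24.3 CPM), oligodendrocyte (1809 to 1901 against 1571 to 1959 CPM) and ependymal (58.9 to 866 against 246 to 358 CPM) sums overlapped between the groups, given here as saline against morphine, and miR-34b-5p of the ependymal list was at 0 in saline replicates 1 and 3. The part of these cells in the values below was not tested, and in bulk tissue fewer cells of a type and less RNA per cell cannot be told apart.

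miR-16-5p was by far the most abundant member. Over the 6 libraries its mean level was 297 ± 134 CPM (SD, n = 6), which placed it 145th among the 1364 miRNAs, and its lowest library, at 191 CPM, was above the highest library of any other member. miR-195a-5p followed at 47.9 ± 28.0 CPM (SD, n = 6), and it was above miR-497a-5p within each of the 6 libraries although their ranges across libraries overlapped. miR-497a-5p and miR-15b-5p, at 12.9 ± 4.42 and 12.0 ± 5.92 CPM (SD, n = 6), could not be ordered, since each was the higher in 3 of 6 libraries. miR-322-5p was at 7.17 ± 4.90 CPM (SD, n = 6), below miR-15b-5p in 5 of 6 libraries. miR-15a-5p was at 6.35 ± 4.08 CPM (SD, n = 6) and below miR-322-5p in 4 of 6, so these neighbours were not separated either. Differences in the efficiency of adapter ligation between sequences enter such comparisons of different miRNAs and were not measured.

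**Figure D1:**
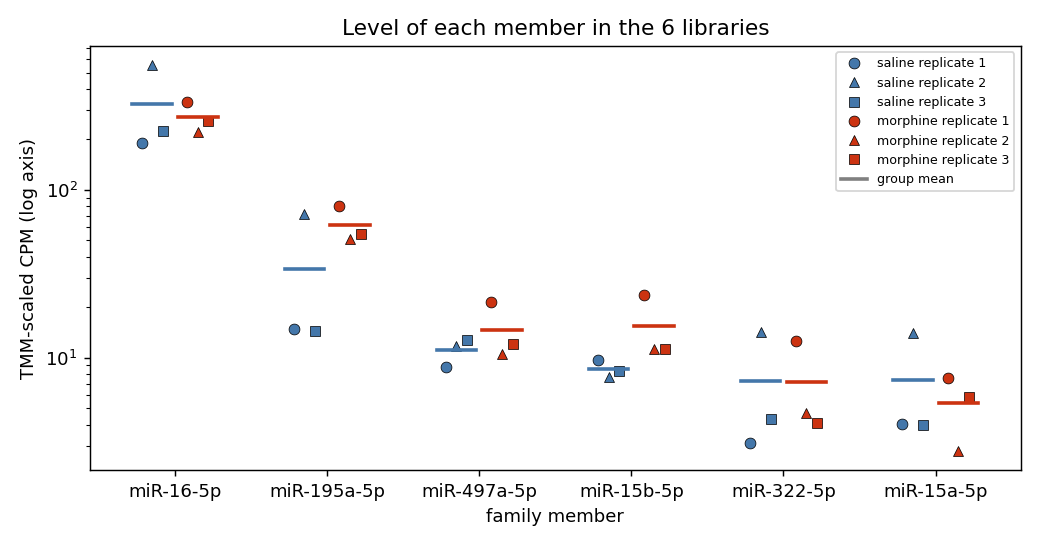
TMM-scaled CPM (log axis) of the 6 members, ordered by mean level, with 1 point for each library and a line at each group mean. miR-16-5p lies between 191 and 553 CPM and all other members lie at or below 80.3 CPM, and saline replicate 2 is the highest saline library for 4 of the 6 members.

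No member met the study's criteria for a DEmiRNA, namely an absolute log2 fold change of 0.58 or more and p, before adjustment, of 0.05 or less, when tested with edgeR (quasi-likelihood). Thus 0 of 6 members were called, against 19.4% of all 1364 miRNAs tested. An adjusted p under 0.05 was found for 0 of 6, against 5.21% of all. Of the 1364 miRNAs, 607 had at most 3 counts in every library of a group, which held for 0 members. The shares over all miRNAs, here and elsewhere, include these low-count miRNAs. With the filterByExpr filter of edgeR, which drops low-count miRNAs, 186 of 594 miRNAs were called, 96 of them upregulated, and 0 of 6 members. DESeq2 also called 0 of 6. The unadjusted p of the members was between 0.150 and 0.985, so 0 were under 0.05. The median log2 fold change was 0.20 over the 6 members and -0.15 over all miRNAs, and 3 members had positive and 3 negative values. With scaling to library totals the median over all miRNAs was -0.40.

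miR-16-5p had 1046, 3685 and 2150 counts in saline replicates 1, 2 and 3, which is 191, 553 and 225 CPM. It had 3018, 1513 and 1636 counts, or 334, 222 and 257 CPM, in the morphine libraries. The groups overlapped, with saline replicates 1 and 2 holding the lowest and the highest value of the 6 libraries. The log2 fold change was -0.26 ± 0.50 (SE), with a 95% interval from -1.29 to 0.78 and an edgeR adjusted p of 0.790 (Benjamini-Hochberg).

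miR-195a-5p, of the Mir497 and Mir195a cluster, was at 14.8, 72.3 and 14.5 CPM with saline (81, 482 and 138 counts) and at 80.3, 51.0 and 54.5 CPM with morphine (726, 348 and 347 counts). Every morphine library was above saline replicates 1 and 3, and saline replicate 2 lay among the morphine libraries. The log2 fold change was 0.87 ± 0.60 (SE), with a 95% interval from -0.37 to 2.12 and an edgeR adjusted p of 0.466. Its neighbour miR-497a-5p was at 8.79, 11.7 and 12.7 CPM with saline (48, 78 and 121 counts) and at 21.5, 10.5 and 12.1 CPM with morphine (194, 72 and 77 counts). Morphine replicate 1 alone was above the saline range, and the log2 fold change was 0.41 ± 0.56 (SE), with a 95% interval from -0.75 to 1.57 and an edgeR adjusted p of 0.681.

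miR-15b-5p, from Smc4, was the member whose groups did not overlap with TMM scaling. It was at 9.70, 7.65 and 8.29 CPM with saline (53, 51 and 79 counts) and at 23.7, 11.3 and 11.3 CPM with morphine (214, 77 and 72 counts). Values higher in every morphine library were found for 1 of 6 members and for 12.2% of all miRNAs, and values lower in every morphine library for 0 of 6 and for 9.9%. Scaled to library totals miR-15b-5p was at 12.7, 6.12 and 11.0 CPM with saline and at 21.7, 10.6 and 9.52 CPM with morphine, so the groups overlapped and the count was 0 of 6, as it was with upper quartile scaling. The log2 fold change of miR-15b-5p was 0.85 ± 0.57 (SE), with a 95% interval from -0.33 to 2.04 and an edgeR adjusted p of 0.462.

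Across the 6 libraries the highest level was 5.01 times the lowest for miR-15a-5p and 4.58 times for miR-322-5p, against 5.55 times for miR-195a-5p and 2.44 to 3.10 times for the others. miR-15a-5p, from Dleu2, was at 4.03, 13.9 and 3.99 CPM with saline (22, 93 and 38 counts) and at 7.52, 2.78 and 5.81 CPM with morphine (68, 19 and 37 counts). Its log2 fold change was -0.44 ± 0.66 (SE), with a 95% interval from -1.81 to 0.93 and an edgeR adjusted p of 0.719. miR-322-5p, from the X chromosome, was at 3.11, 14.2 and 4.30 CPM with saline (17, 95 and 41 counts) and at 12.6, 4.69 and 4.08 CPM with morphine (114, 32 and 26 counts). For both miRNAs saline replicate 2 was the highest library of the 6. The log2 fold change of miR-322-5p was -0.01 ± 0.68 (SE), with a 95% interval from -1.42 to 1.40 and an edgeR adjusted p of 0.998. Each of the 6 intervals includes 0 and also values beyond the 0.58 criterion, so at this replicate spread changes of that size can be neither shown nor excluded.

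Saline replicate 2 decided the direction or the call of several members. Relative to the mean of saline replicates 1 and 3, the log2 level in saline replicate 2 was 2.30 for miR-195a-5p, 1.91 for miR-322-5p, 1.77 for miR-15a-5p and 1.41 for miR-16-5p. It was 0.12 for miR-497a-5p and -0.23 for miR-15b-5p. The members with high values in that library had a mature GC content of 40.9% to 45.5%, but so did miR-15b-5p, at 40.9%. The part of GC content in these values was not tested. Without saline replicate 2, miR-195a-5p had a log2 fold change of 2.08 ± 0.38 (SE; edgeR adjusted p = 4.22e-07). miR-322-5p then met the study's criteria but not the adjusted threshold, with a log2 fold change of 0.94 ± 0.47 (SE; edgeR adjusted p = 0.128). miR-16-5p and miR-15a-5p changed sign, to 0.38 (SE 0.28) and 0.43 (SE 0.48), and miR-15b-5p and miR-497a-5p were at 0.79 (SE 0.42) and 0.45 (SE 0.41). In that fit 2 of 6 members were called, both upregulated, while 20.9% of the 1328 miRNAs tested were called upregulated and 37% in either direction. With adjustment, 1 of 6 members was called against 29.1% of all miRNAs.

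The 6 members together held 1267, 4484 and 2567 counts with saline and 4334, 2061 and 2195 with morphine. The summed level was 232, 672 and 269 CPM in the saline group and 479, 302 and 345 CPM in the morphine group. The means, 391 ± 244 CPM (SD, n = 3) and 375 ± 92.6 CPM (SD, n = 3), differed by less than the spread between replicates. The log2 ratio of the means was -0.06, and 0.58 without saline replicate 2. Scaled to library totals alone, the sums were 399 ± 123 CPM (SD, n = 3) with saline and 338 ± 88.9 CPM (SD, n = 3) with morphine.

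Within the family, the shares of miR-16-5p and miR-195a-5p did not overlap between the groups, while the summed level did. Both shares are parts of the same total, so a rise in one lowers the other and they are not separate observations. For comparison, 22.1% of all miRNAs had TMM-scaled levels that did not overlap between the groups, in either direction. That is a different measure, and no such value was computed for shares within other families. The share used here is of counts within a library, so it contains no scaling factor. It was chosen after the values were seen and is given with no test. miR-16-5p made up 82.6%, 82.2% and 83.8% of the family's counts in saline replicates 1, 2 and 3 and 69.6%, 73.4% and 74.5% in morphine replicates 1, 2 and 3. The mean share was 82.8% ± 0.822 (SD, n = 3) with saline and 72.5% ± 2.57 (SD, n = 3) with morphine, and the groups did not overlap. The 95% Wilson intervals of these shares were between 2.24 and 4.18 percentage points wide and cover counting error only, since reads without molecular identifiers are not independent molecules.

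miR-195a-5p had the higher share in the morphine group. It made up 6.39%, 10.7% and 5.38% of the total in saline libraries 1 to 3 and 16.8%, 16.9% and 15.8% in morphine replicates 1, 2 and 3. The mean share was 7.51% ± 2.85 (SD, n = 3) against 16.5% ± 0.587 (SD, n = 3), with Wilson intervals 1.75 to 3.23 points wide. For both shares saline replicate 2 fell on the side of the other saline libraries, unlike in the TMM-scaled levels. The log2 ratio of miR-195a-5p to miR-16-5p, whose mature sequences differ at G10A and U11G, was -3.68, -2.93 and -3.96 with saline and -2.05, -2.12 and -2.24 with morphine. How the authors' counting assigned reads with mismatches or shortened ends between the members is not given in the sources used here. The shares of miR-15b-5p, miR-497a-5p, miR-322-5p and miR-15a-5p overlapped between the groups and lay between 0.922% and 4.94%.

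**Figure D2:**
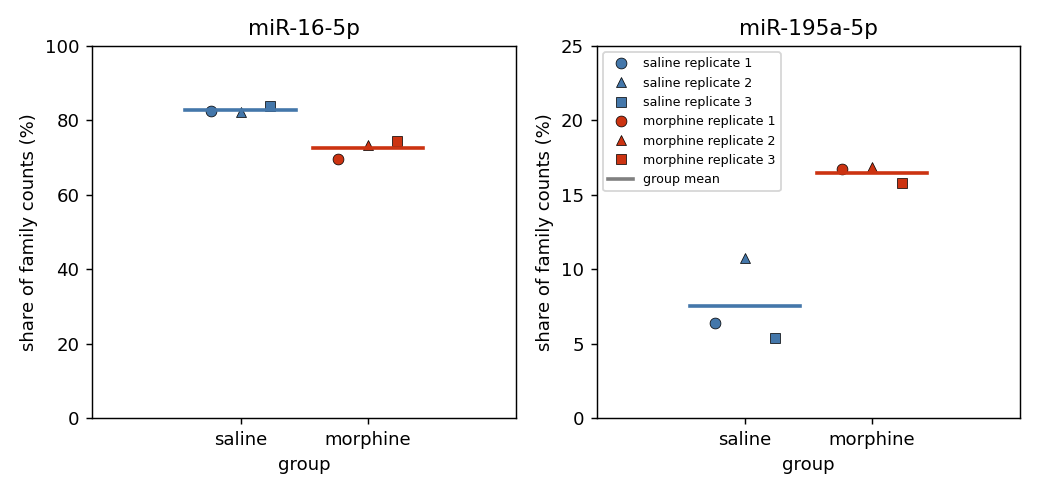
Share of the family's counts (%) taken by miR-16-5p (left, axis from 0 to 100%) and miR-195a-5p (right, axis from 0 to 25%), with 1 point for each library and a line at each group mean. The miR-16-5p share is at least 82.2% in every saline library and at most 74.5% in every morphine library, and the miR-195a-5p share is lower in every saline library.

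Products of the same cluster or hairpin were compared by the log2 ratio of their counts, with a pseudocount of 0.5, and exact two-sided permutation tests over 10 pairs. miR-16-5p sums Mir16-1 and Mir16-2, so a ratio with miR-16-5p also contains counts from the other locus. With 3 libraries against 3 the smallest p such a test can give is 0.1. The groups did not overlap for 3 of the 10 pairs. These were the arms of Mir15b, the arms of Mir322 and miR-16-5p over miR-16-2-3p, the last with 13 counts of miR-16-2-3p in all. Each of these pairs had an exact permutation p of 0.1, or 0.333 adjusted over the 10 pairs. TMM-scaled levels did not overlap for 22.1% of all miRNAs, in either direction, and such a share was not computed for ratios of other miRNAs. For miR-15a-5p over miR-16-5p the mean log2 ratio was -5.55 ± 0.25 (SD, n = 3) with saline and -5.73 ± 0.48 (SD, n = 3) in the morphine group (exact permutation p = 0.7). miR-15a-5p therefore held few counts beside miR-16-5p in every library. For miR-15b-5p over miR-16-5p the mean was -5.07 ± 0.97 (SD, n = 3) against -4.20 ± 0.35 (SD, n = 3), with overlapping groups (exact permutation p = 0.2). For miR-497a-5p over miR-195a-5p it was -1.19 ± 1.27 (SD, n = 3) against -2.11 ± 0.19 (SD, n = 3), where the value of saline replicate 2, -2.62, was the lowest of the 6 (exact permutation p = 0.4). Without saline replicate 2 the difference of this ratio, morphine minus saline, was -1.64 in place of -0.92.

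The other arm of each hairpin, called 3p here, is the strand usually degraded when the 5p arm is loaded. The hairpins of miR-322 and miR-195a are shown because their 3p arm exceeded the 5p arm in some or all libraries, with the mature arms in capitals, the 5p arm first.
Mir322: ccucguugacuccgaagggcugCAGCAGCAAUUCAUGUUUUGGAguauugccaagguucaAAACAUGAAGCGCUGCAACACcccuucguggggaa
Mir195a: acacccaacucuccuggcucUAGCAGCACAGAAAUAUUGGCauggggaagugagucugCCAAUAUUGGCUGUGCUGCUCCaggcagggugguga
Of 7 other arms sought, 6 were tested, and miR-497a-3p was not among the 1364 miRNAs listed. miR-15b-3p and miR-322-3p met the criteria, both upregulated, against 9.68% of all miRNAs called upregulated, and 4 of the 6 did not pass. With adjustment over all miRNAs 0 of 6 were called by edgeR, where 2 had an unadjusted p under 0.05, against 5.21% of all miRNAs with an adjusted call. DESeq2 called both of these with adjustment, along with 11.4% of all miRNAs. Over these 6 arms the median was 0.82 on the log2 fold change scale, and it was 0.82 over the 4 with counts above the floor in both groups.

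miR-322-3p was the arm with more counts than its 5p partner. It had 112, 199 and 273 counts with saline (20.5, 29.8 and 28.6 CPM) and 878, 349 and 388 with morphine (97.1, 51.1 and 60.9 CPM). Every morphine library was above every saline library, and the log2 fold change was 1.40 ± 0.51 (SE; edgeR adjusted p = 0.105). With library totals in place of TMM its log2 fold change was 1.09 and it was no longer called, at an unadjusted p of 0.0660 from edgeR. miR-322-5p, from the same hairpin, had a log2 fold change near 0, as given above. The log2 ratio of the 5p to the 3p arm was -2.68, -1.06 and -2.72 with saline and -2.94, -3.43 and -3.87 with morphine. The ratios did not overlap between the groups, at the smallest p possible (exact permutation p = 0.1, 0.333 adjusted over 10 pairs). Without saline replicate 2 the difference, morphine minus saline, was -0.71 in place of -1.26.

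miR-15b-3p had few counts, 4, 8 and 6 with saline and 36, 18 and 30 with morphine, with a log2 fold change of 2.13 ± 0.73 (SE; edgeR adjusted p = 0.0822). The 5p to 3p log2 ratio of the Mir15b hairpin was 3.57, 2.60 and 3.61 with saline and 2.56, 2.07 and 1.25 with morphine. It was lower in every morphine library, by little in the case of saline replicate 2 against morphine replicate 1 (exact permutation p = 0.1, 0.333 adjusted over 10 pairs).

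The arms of Mir195a changed rank between libraries. miR-195a-3p was at 44.8, 22.5 and 36.0 CPM with saline and at 42.0, 39.9 and 39.4 CPM with morphine, and its log2 fold change was 0.23 ± 0.51 (SE; edgeR adjusted p = 0.801). Its counts, 245, 150 and 343 in the saline libraries, exceeded those of miR-195a-5p in saline replicates 1 and 3 but not in saline replicate 2 or in any morphine library. The 5p to 3p log2 ratio was -1.59, 1.68 and -1.31 with saline and 0.93, 0.36 and 0.47 with morphine, so the groups overlapped at saline replicate 2 (exact permutation p = 0.4). Without it the difference, morphine minus saline, was 2.04 in place of 0.99. GC content is 42.9% in miR-195a-5p and 54.5% in miR-195a-3p, and its part in the ratio was not tested.

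miR-16-1-3p, the 3p arm of the Mir16-1 hairpin and thus a product of the Dleu2 locus alone, was at 5.31, 56.1 and 6.61 CPM with saline (29, 374 and 63 counts). It was at 11.0, 6.59 and 7.22 CPM with morphine (99, 45 and 46 counts). Saline replicate 2 was far above the other libraries, and scaling by relative log expression, library totals or upper quartile brought miR-16-1-3p past the criteria, downregulated, as did leaving out saline replicate 1 or 3. With TMM the log2 fold change was -1.45 ± 0.73 (SE; edgeR adjusted p = 0.287). Without that library it was 0.47 ± 0.45 (SE; edgeR adjusted p = 0.492). miR-16-2-3p, from the Smc4 locus, had 0, 2 and 0 counts with saline and 2, 1 and 8 with morphine, and miR-15a-3p had 0, 0 and 2 against 1, 0 and 0. In both arms every saline library was at or under the floor of 3 counts, so no single fold is given for them.

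**Figure D3:**
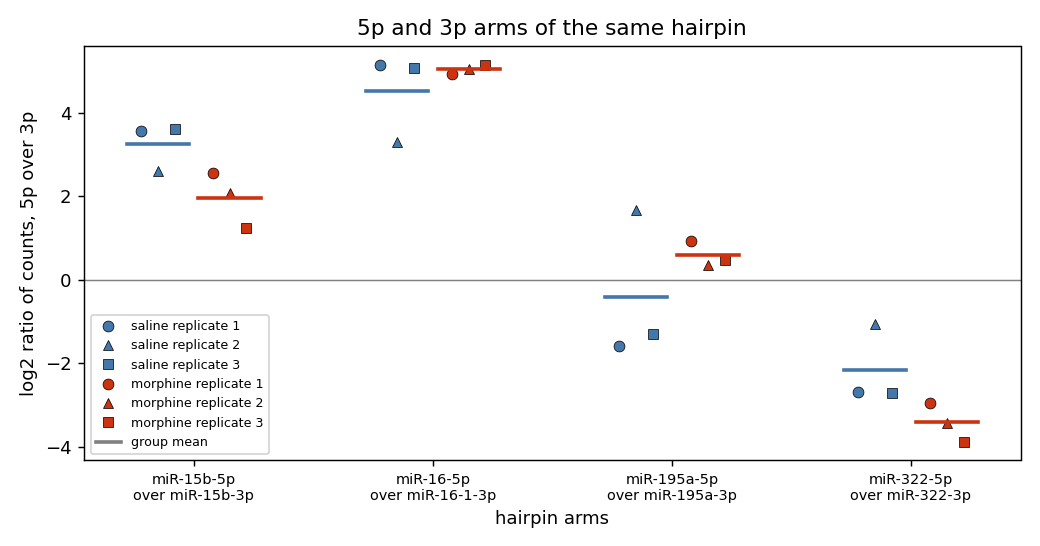
Log2 ratio of raw counts, 5p arm over 3p arm, for the 4 pairs of arms with at least 100 counts for each arm. There is 1 point for each library and a line at each group mean. In the pair miR-16-5p over miR-16-1-3p, the count of miR-16-5p also contains reads from another locus, so this ratio is not of the Mir16-1 hairpin alone. The Mir322 ratio is below 0 in every library, the Mir195a ratio is on both sides of 0, and the Mir15b and Mir322 ratios are lower in every morphine library than in every saline library.

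The miRNAs clustered with a member were listed for the X chromosome cluster of Mir322 and for Mir497. Of these 12, 7 had at most 60 counts in all. The criteria were met by miR-503-3p and miR-497b, both upregulated, and 10 did not pass, against 9.68% of all miRNAs in each direction. With adjustment 1 of 12 was called, miR-497b, against 5.21% of all miRNAs.

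miR-503, whose 5p arm shares bases 2 to 7 with the family, is next to miR-322, and its mature sequence is shown with bases 2 to 8 in capitals.
miR-503-5p: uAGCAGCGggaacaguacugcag
miR-503-5p, with 5, 17 and 6 counts against 16, 6 and 7, had a log2 fold change of -0.10 (SE 0.81), and its log2 ratio to miR-322-5p was -2.26 ± 0.53 (SD, n = 3) against -2.31 ± 0.49 (SD, n = 3; exact permutation p = 0.9). miR-503-3p had 34, 10 and 24 counts with saline and 106, 96 and 87 with morphine, or 3.41 ± 2.49 CPM against 13.2 ± 1.25 CPM (SD, n = 3). The groups did not overlap, and the log2 fold change was 1.95 ± 0.64 (SE; edgeR adjusted p = 0.0698). At Mir503 as at Mir322, the 3p arm met the criteria and the 5p arm did not, and a difference between the arms of Mir503 was not tested.

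Further along the cluster, miR-450a-5p had a log2 fold change of 1.38 ± 0.70 (SE; edgeR adjusted p = 0.291) and miR-542-3p of 1.03 ± 0.78 (SE; edgeR adjusted p = 0.522). Both were low in saline replicates 1 and 3, with 2.75 and 2.31 CPM for miR-450a-5p and 3.29 and 0.629 CPM for miR-542-3p. In saline replicate 2, at 16.8 and 21.9 CPM, both were within or above the morphine range of 13.2 to 29.0 CPM and 15.2 to 19.7 CPM. Without saline replicate 2 the log2 fold changes were 2.91 ± 0.48 (SE; edgeR adjusted p = 1.57e-08) and 3.26 ± 0.51 (SE; edgeR adjusted p = 1.61e-09). miR-450a-5p also met the criteria with library totals, at 1.34, and without morphine replicate 3, at 1.58. miR-351-5p, of the same cluster, had a negative value, -0.62 ± 0.57 (SE; edgeR adjusted p = 0.584), and without saline replicate 2 it met the criteria in that direction, at -0.87 (SE 0.40). miR-351-3p was at -1.27 (SE 1.16). miR-450b-5p was at 0.68 (SE 0.97), and at 2.98 (SE 0.97; edgeR adjusted p = 0.00884) without saline replicate 2. miR-542-5p was higher in every morphine library, with 2, 2 and 3 counts against 9, 6 and 6, but every saline library was at or under the floor. miR-450a-1-3p, miR-450a-2-3p and miR-450b-3p had 1, 1 and 7 counts in all.

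miR-497b lies on the strand opposite Mir497, at chr11:70234763-70234786, and 17 of its 24 bases lie over the position of miR-497a-3p. The Mir497 hairpin is shown with its mature arms in capitals, beside mature miR-497b with its seed in capitals.
Mir497: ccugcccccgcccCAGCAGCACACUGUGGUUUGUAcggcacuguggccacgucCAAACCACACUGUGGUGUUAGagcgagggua
miR-497b: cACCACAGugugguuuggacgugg
It had 2, 7 and 6 counts with saline and 52, 50 and 34 with morphine, which is 0.366, 1.05 and 0.629 CPM against 5.75, 7.33 and 5.34 CPM. Every morphine library was above every saline library, and the log2 fold change was 3.13 ± 0.73 (SE; edgeR adjusted p = 0.0132). Its adjusted call was lost when morphine replicate 1 or morphine replicate 2 was left out. Whether the counting kept the strands apart is not given in the sources used here. miR-497b could not be compared with miR-497a-3p, which was not among the 1364 miRNAs listed. Other pairs of miRNAs from single loci that overlap on opposite strands were examined, with both miRNAs listed. Of the 18 such pairs with at least 30 counts for the larger, 5 had counts within 1% of each other. miR-3065-5p and miR-338-3p, for example, had 6747 counts each and the same count in every library. These 5 pairs overlapped by 19 to 21 bases. The other pairs, with overlaps of 17 to 21 bases, differed by 1.81% to 99.8%. Among them, miR-337-5p and miR-3544-3p, which overlap by 17 bases as miR-497b and miR-497a-3p do, differed by 98.7%. The pairs of miR-299a and miR-299b arms, at 18 bases, differed by 99.6% and 99.8%. How many of the reads counted as miR-497b came from the 3p arm of Mir497 was not tested, and the value may belong to either strand.

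**Figure D4:**
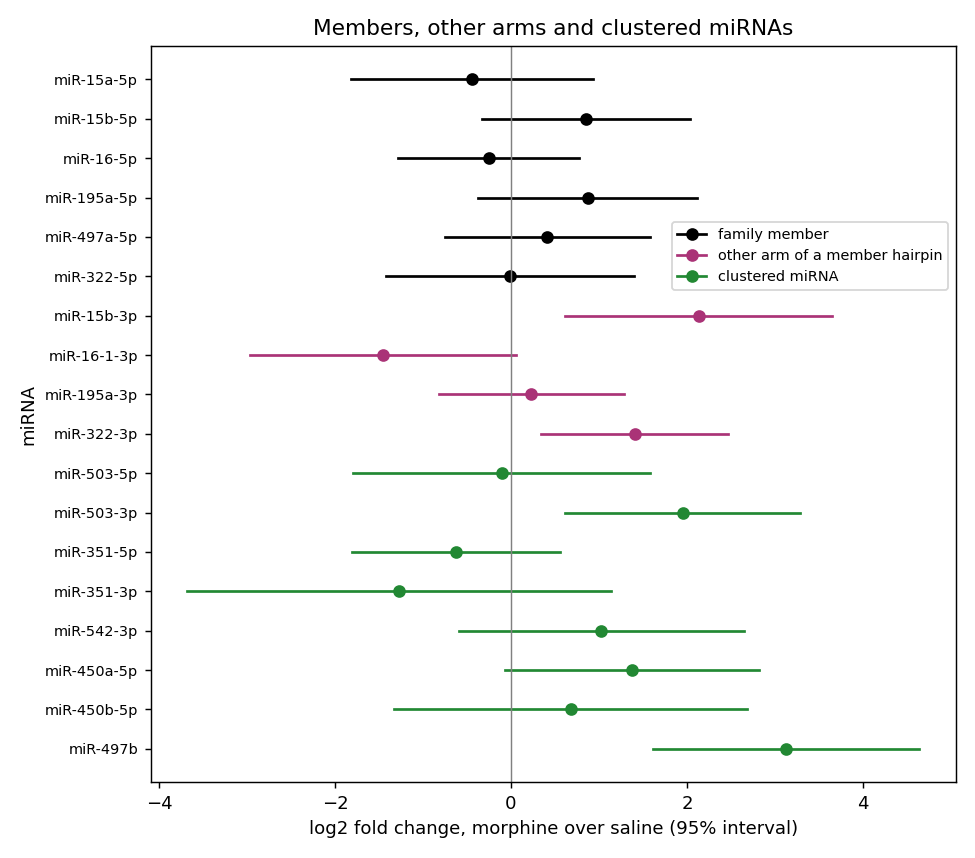
Log2 fold change, morphine over saline, with its 95% interval from edgeR, for the 18 of 24 members, other arms and clustered miRNAs with a library above 3 counts in each group. The intervals of all 6 members include 0, and those of miR-15b-3p, miR-322-3p, miR-503-3p and miR-497b lie above 0.

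The members did not share a single pattern across the 6 libraries. The measure of likeness was the root mean square difference of centred log2(CPM + 1) over the 6 libraries, where 0 is an identical pattern. The most alike pair was miR-15a-5p and miR-16-5p, at 0.24, followed by miR-15b-5p and miR-497a-5p, at 0.30, which lie in different clusters. The least alike were miR-15b-5p and miR-195a-5p, at 0.87. miR-497a-5p and miR-195a-5p, neighbours on chromosome 11, were almost as far apart, at 0.85.

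Among 212 other miRNAs with a mean of at least 100 CPM, the pattern of miR-16-5p was closest to miR-138-5p (0.10), miR-9-5p (0.21), miR-9b-3p (0.21), miR-410-3p (0.25) and miR-186-5p (0.25), against a median distance of 0.89. The summed family level was closest to miR-138-5p (0.14), miR-186-5p (0.16), miR-9-5p (0.20), miR-9b-3p (0.20) and miR-29a-3p (0.20). All 6 of these miRNAs were highest in saline replicate 2. miR-9-5p and miR-9b-3p had nearly equal levels in each library, 211199 and 210686 CPM in saline replicate 2, and are not separate examples. miR-138-5p, a brain-enriched miRNA, was at 380, 1238 and 491 CPM with saline and at 736, 478 and 479 CPM with morphine, with a log2 fold change of -0.32 (adjusted p = 0.731 with edgeR).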

How the data were processed

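Small RNA libraries of mouse NAc were analysed, 3 from the saline group and 3 from the morphine group, each assigned from its sample title. Per the study's methods, reads with adapters, poly-N stretches or low quality were dropped, Bowtie was used to filter out other RNA classes and repeats, and the remainder was compared with miRBase. The authors deposited a table of unscaled counts for each mature miRNA and of TPM values, which were checked to be counts scaled by library total and were not used further. The counting tool, genome build and miRBase release are not given in the sources used here. All per-sample columns could be matched to a sample (0 could not).

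The family members and the lists of other arms, neighbours and markers were chosen with earlier results of these data known. All 1364 miRNAs with at least 1 count were fitted together in edgeR 4.0.16 (R 4.3.3; TMM scaling, quasi-likelihood F test, no covariate), and p-values were adjusted over all of them by Benjamini-Hochberg. The miRNAs named are the members, the listed partners, other miRNAs with the same seed and the 5 closest in pattern to miR-16-5p and to the family sum. Standard errors came from the log2 fold change and its F statistic. Mature sequences were taken from RefSeq (1089 of the 1364 miRNAs matched by name) and loci from GENCODE. The fit was tested on simulated counts. No library pair had equal counts within sampling noise (smallest chi-square per degree of freedom 91.1). Alternatives were 13 other fits, including DESeq2 1.42.0, other scalings and filters, the replicate number as a block and leaving out each library.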

Additional observations from a re-analysis of the deposited data

How the results depend on the processing

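The 6 log2 fold changes of the members were recomputed in 13 alternative fits. The count of members called stayed at 0 in all of them except the fit without saline replicate 2, so leaving out 1 library gave 0 to 2 members called by the study's criteria and 0 to 1 with adjustment. Leaving out 1 library gave 4 to 9 partner miRNAs (other arms and clustered miRNAs) called by the criteria and 0 to 7 with adjustment, against 4 and 1 with all libraries. With adjustment DESeq2 called 4 partners and the filterByExpr filter 2. Over all miRNAs the adjusted calls numbered 71, and 94 with relative log expression scaling, 160 with library totals, 153 with upper quartile scaling, 156 with DESeq2, 28 with a minimum of 10 counts, 0 without morphine replicate 1 and 386 without saline replicate 2. Log2 fold changes that crossed 0 when 1 library was left out ran from -0.67 to 0.43 for miR-15a-5p, -0.43 to 0.38 for miR-16-5p, -0.59 to 0.94 for miR-322-5p, -1.82 to 0.47 for miR-16-1-3p and -0.39 to 0.74 for miR-503-5p. Differences of log2 ratios did so from -0.32 to 0.093 for miR-15a-5p over miR-16-5p, -0.29 to 0.25 for miR-503-5p over miR-322-5p, -0.84 to 0.96 for the arms of Mir15a and -0.077 to 0.85 for miR-16-5p over miR-16-1-3p. miR-322-5p was at 0.025 with filterByExpr, miR-195a-3p at -0.18 with library totals and -0.054 with upper quartile scaling, and the ratio of the Mir15a arms at -0.033 with a pseudocount of 1. The cause of these shifts was not tested.

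The deviations of same-numbered libraries from their group means correlated at -0.23, -0.28 and 0.14 over 899 miRNAs, so the numbers were not taken to pair the samples. With the replicate number as a block, 0 members and 6 partners were called by the criteria, 1 partner with adjustment, and 179 of all miRNAs, 32 with adjustment. miR-322-5p was then at 0.079 and miR-503-5p at 0.062. miR-450a-5p, at 1.93, and miR-542-3p, at 2.24, met the criteria with the block. Low counts limit what can be seen of the 9 partners with at most 60 counts in all.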
